A study of Homo sapiens with 12 samples.

Results

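The 37 genes described here make cholesterol and fatty acids, move sterols, or control that supply. They were taken by name from a count table of 64253 genes. All 37 were found and all 37 passed the filter on low counts, so none is left out. RNA was sequenced from JEKO-1, an established human mantle cell lymphoma line, after 48 h under 4 treatments with 3 libraries each. The treatments were KPT-330 (selinexor, a drug against the nuclear exporter XPO1, or CRM1) together with choline salicylate (CS), KPT-330 alone, CS alone, and the solvent DMSO as control. All groups are the same line in medium with fetal bovine serum, which itself carries lipoproteins. The comparison addresses what salicylate adds to inhibition of CRM1. The labels used here state neither the doses behind these 12 libraries nor whether replicates were grown as separate cultures. The p-values thus reflect variation among libraries that could be technical. Because this is bulk RNA, a lower level in every cell and fewer cells with the transcript cannot be told apart.

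A cell senses its membrane cholesterol in the endoplasmic reticulum. When sterols run low, SCAP carries the SREBP transcription factors (the products of SREBF1 and SREBF2) to the Golgi, where they are cut, and the freed part enters the nucleus and turns on the sterol and fatty acid genes. INSIG1 and INSIG2 hold SCAP back when sterols are plentiful, and INSIG1 is itself an SREBP target. Another system, the liver X receptors (LXR), is switched on by surplus sterols and drives export genes such as ABCA1 and ABCG1, as well as MYLIP and SREBF1. Dividing cells need sterols and fatty acids for new membrane.

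KPT-330 lowered most of the sterol pathway, CS alone left nearly all of it uncalled, and adding CS to KPT-330 raised a large share of it above the level with KPT-330 alone. A gene is called when edgeR's quasi-likelihood F-test over all 19460 tested genes gave a Benjamini-Hochberg adjusted p (edgeR adjusted p) of 0.05 or less. With KPT-330, 20 of the 37 genes (54.1%) were lower than with DMSO and 2 (5.41%) were higher, where 23.8% of all tested genes were lower and 24.7% were higher (48.5% called in all). The median log2 fold change of the 37 was -0.37, beside 0.04 over all tested genes. With CS, 2 genes were higher than with DMSO and 0 lower, which is near the share over all genes (3.76% higher, 5.13% lower and 8.88% in all). Before adjustment 4 of the 37 had an edgeR p under 0.05, and the 95% intervals over the 37 reached down to -0.73 and up to 0.80 (both FASN). With the combination set against KPT-330, 17 genes (45.9%) were higher and 2 (5.41%) lower, against 19.7% higher and 17.9% lower over all genes (37.6% called in all). The median log2 fold change was 0.14. The 17 higher genes all lay below 50% GC content, as 20 of the 37 do, and both lower genes above it. With counts corrected for GC content 21 were higher and 3 lower, beside 4328 and 5137 of all 19460 tested genes. Scaling by library size alone, which moves the median of all genes to 0.20 with KPT-330 over DMSO, left 13 of the 37 lower and 2 higher there; FDPS, CYP51A1, NSDHL, EBP, ABCG1, FADS1 and FADS2 were then uncalled. No gene of the 37 passed the study's own limit, an absolute log2 fold change over 2, in any of the 7 comparisons. With KPT-330 over DMSO 3.02% of all tested genes passed it, with the combination over DMSO 4.36%, with the combination over KPT-330 0.853%, with the combination over CS 3%, with CS over KPT-330 2.67%, with CS over DMSO 0.144%, and 0.761% did in the difference between the CS effects.

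**Figure D1:**
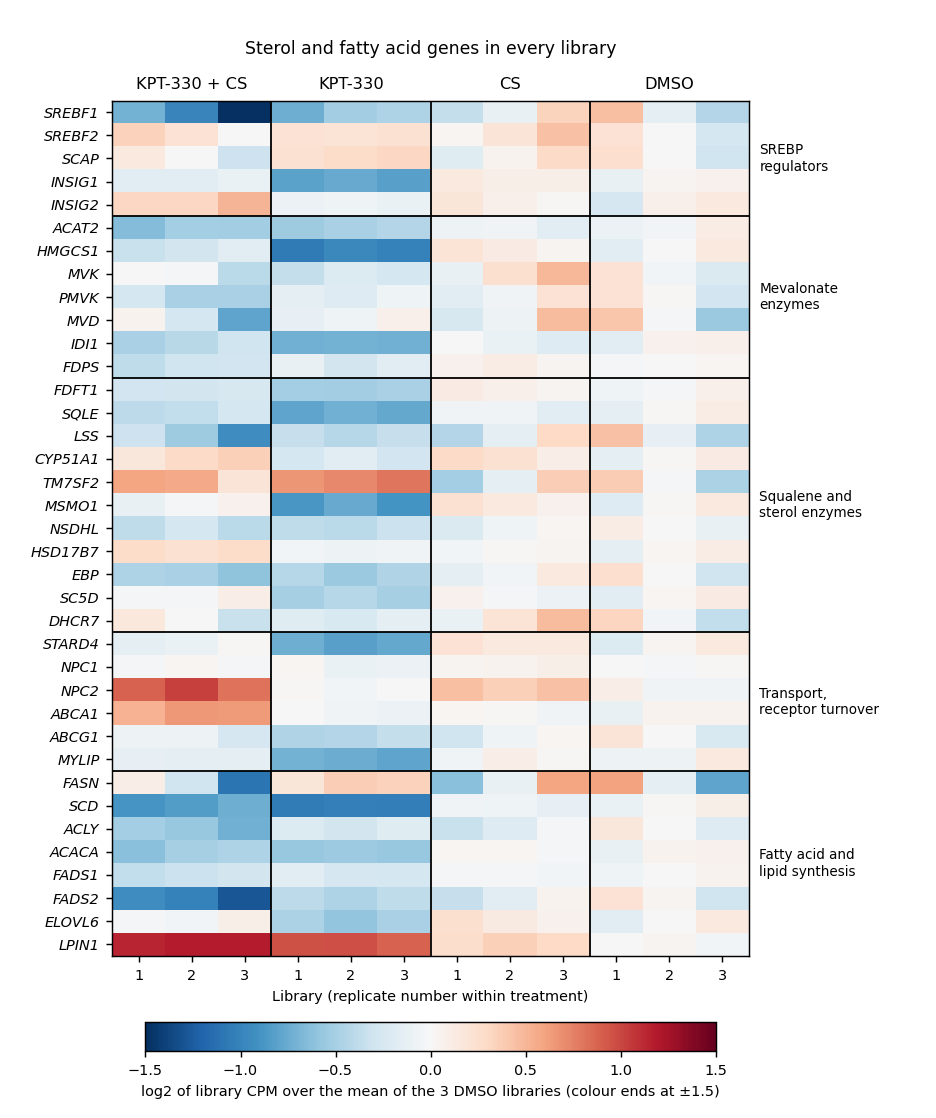
Each cell is the log2 of a library's CPM (counts scaled to library size) over the mean of the 3 DMSO libraries, for 37 genes (rows, by role) in 12 libraries (columns, by treatment). The KPT-330 columns are blue for HMGCS1, MSMO1, SQLE, STARD4 and SCD; with CS added, MSMO1 and STARD4 are near white while SCD and FADS2 stay blue and LPIN1, NPC2 and ABCA1 are red.

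Promoter sequence is shown for SREBF2, the factor that drives the sterol enzymes, and for the 4 genes that, among those lower with KPT-330, stood highest in the combination over KPT-330. RefSeq windows (GRCh38.p14) were matched by symbol for 32 of the 37 genes (not ACAT2, FDFT1, SQLE, ABCG1 or FASN) and cover the 250 bases before a transcription start, on the gene's strand. Capitals mark the classical sterol regulatory element TCACCCCAC, the E-box CACGTG, and CCAAT or its reverse complement ATTGG, the site of the factor NF-Y, which is known to work beside SREBP. The windows are chr22:41832855-41833104 on the plus strand for SREBF2, chr4:165327419-165327668 on the plus strand for MSMO1, chr5:43313413-43313662 on the minus strand for HMGCS1 (the upstream one of its windows), chr5:111512536-111512785 on the minus strand for STARD4 and chr7:155297628-155297877 on the plus strand for INSIG1.
SREBF2: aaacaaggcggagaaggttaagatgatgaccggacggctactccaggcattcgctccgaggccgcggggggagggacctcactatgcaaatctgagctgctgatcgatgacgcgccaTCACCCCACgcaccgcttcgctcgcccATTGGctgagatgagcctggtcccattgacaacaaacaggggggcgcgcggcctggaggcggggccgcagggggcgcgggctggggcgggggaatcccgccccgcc
MSMO1: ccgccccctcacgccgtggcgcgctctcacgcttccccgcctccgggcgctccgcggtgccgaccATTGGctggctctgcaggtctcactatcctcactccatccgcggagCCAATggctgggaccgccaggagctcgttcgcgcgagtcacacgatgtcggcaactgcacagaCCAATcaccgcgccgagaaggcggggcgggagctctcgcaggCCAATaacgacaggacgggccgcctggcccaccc
HMGCS1: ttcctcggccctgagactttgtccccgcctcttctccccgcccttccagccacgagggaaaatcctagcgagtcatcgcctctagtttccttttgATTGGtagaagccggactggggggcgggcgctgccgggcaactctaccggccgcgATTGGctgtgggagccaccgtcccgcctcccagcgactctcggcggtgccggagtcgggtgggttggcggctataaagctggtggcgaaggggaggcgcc
STARD4: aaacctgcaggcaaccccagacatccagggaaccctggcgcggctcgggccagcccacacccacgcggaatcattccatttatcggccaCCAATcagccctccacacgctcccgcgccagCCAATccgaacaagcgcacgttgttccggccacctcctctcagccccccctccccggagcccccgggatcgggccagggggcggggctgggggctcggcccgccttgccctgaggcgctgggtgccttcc
INSIG1: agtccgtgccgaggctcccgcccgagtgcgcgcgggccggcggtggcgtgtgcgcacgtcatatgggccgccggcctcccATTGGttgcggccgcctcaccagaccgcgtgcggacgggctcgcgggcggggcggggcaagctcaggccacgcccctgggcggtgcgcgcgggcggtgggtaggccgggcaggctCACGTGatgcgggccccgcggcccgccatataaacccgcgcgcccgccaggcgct

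In the SREBF2 window the sterol element starts 133 bases before the start site and a CCAAT in reverse begins 106 bases before it. The MSMO1 window holds CCAAT at 4 places, at 185, 139, 76 and 34 bases before the start. HMGCS1 has it at 155 and 100 bases, STARD4 at 161 and 130 bases, and INSIG1 at 170 bases, with an E-box at 55 bases. Searched on both strands, CCAAT stood in 25 of the 45 windows of these genes (55.6%). It stood in 32.0% of all 35116 windows and in 33.2% of the 14972 windows of tested genes. CACGTG stood in 5 of the 45 (11.1%), from 4 genes, against 6.35% of all and 8.29% of those of tested genes. The exact TCACCCCAC was in 1 of the 45, that of SREBF2, and in 0.362% of all. These are letter matches in a short window; binding was not measured, and no match says only that these letters are not in the window.

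Among the regulators, the feedback gene INSIG1 was lower with KPT-330 and higher with the combination over KPT-330, as some but not all of the enzymes were. ACAT2, FDPS, NSDHL and EBP were lower with KPT-330 with no called rise, and MVK, PMVK, MVD, LSS and DHCR7 were uncalled in both comparisons. The factors that drive the enzymes gave no called change with KPT-330. INSIG1 (ENSG00000186480, chr7:155297776-155310235, hg38) had 81.2, 81.1 and 84.0 CPM in the combination libraries, 51.7, 53.3 and 51.4 CPM with KPT-330, 100.3, 96.2 and 96.0 CPM with CS, and 83.6, 93.1 and 94.4 CPM with DMSO. Its KPT-330 libraries lay below all others, and 1 of the 3 combination libraries lay within the DMSO range, the others just under it. The log2 fold change was -0.79 ± 0.05 for KPT-330 over DMSO (SE; edgeR adjusted p = 1.36e-07) and 0.66 ± 0.05 for the combination over KPT-330 (edgeR adjusted p = 1.86e-06). INSIG2, the other anchor of SCAP, had 29.3, 29.4 and 33.7 CPM in the combination libraries, 22.3, 22.6 and 22.1 CPM with KPT-330, 26.9, 25.0 and 23.9 CPM with CS, and 19.8, 24.8 and 26.2 CPM with DMSO. With the combination it was above every other library, at 0.47 ± 0.10 over KPT-330 (edgeR adjusted p = 0.00223) and 0.38 ± 0.10 over DMSO (edgeR adjusted p = 0.00431).

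SREBF2 and SCAP were uncalled in all 7 comparisons. With KPT-330 over DMSO their log2 fold changes were 0.22 ± 0.12 (95% interval -0.05 to 0.48) and 0.27 ± 0.14 (-0.04 to 0.58), and both turn negative when counts are corrected for GC content (-0.09 and -0.21, both called). SREBF1, whose SREBP form favours fatty acid genes and which is the lowest of the 37 per kilobase, ranged over 3.82 to 6.70 CPM with the combination, 6.58 to 7.98 CPM with KPT-330, 8.58 to 13.8 CPM with CS and 8.05 to 14.9 CPM with DMSO. It was lower with the combination than with DMSO, at -1.04 ± 0.25 (edgeR adjusted p = 0.00266). With KPT-330 over DMSO its value was -0.57 ± 0.24 (edgeR adjusted p = 0.0652), uncalled here but called with GC correction (-1.18), with DESeq2 size factors (-0.59), without the DMSO replicate 3 (-0.74), and without replicate 3 of the combination or of CS (-0.57 each).

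The mevalonate enzymes build the isoprene units of cholesterol from acetyl-CoA. With KPT-330, 4 of the 7 (57.1%) were lower than with DMSO, HMGCS1 and IDI1 by the most, where 23.8% of all tested genes were lower. HMGCS1 (ENSG00000112972, chr5:43289395-43313512), the enzyme that makes HMG-CoA, had 223, 231 and 249 CPM in the combination libraries, 135, 143 and 139 CPM with KPT-330, 322, 306 and 288 CPM with CS, and 250.2, 282 and 309.9 CPM with DMSO. The KPT-330 libraries stood at a ratio of 0.496 to DMSO, with no overlap, or -1.01 ± 0.08 on the log2 scale (edgeR adjusted p = 2.89e-07). The combination libraries lay between the KPT-330 and the DMSO libraries, 0.75 ± 0.08 over KPT-330 (edgeR adjusted p = 8.46e-06) and -0.26 ± 0.07 against DMSO (edgeR adjusted p = 0.00922); without DMSO replicate 3 that last value was -0.16 with an edgeR adjusted p of 0.059.

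IDI1, which interconverts the isoprene building blocks, had 191, 202 and 217 CPM in the combination libraries, 163, 164 and 162 CPM with KPT-330, 267, 249.8 and 234 CPM with CS, and 241, 281 and 283 CPM with DMSO. Its 4 groups fell into 3 levels, KPT-330 lowest, the combination next, and CS and DMSO overlapping at the top. It was -0.72 ± 0.07 with KPT-330 over DMSO (edgeR adjusted p = 3.85e-06) and 0.32 ± 0.07 with the combination over KPT-330 (edgeR adjusted p = 0.00353). ACAT2, the acetyl-CoA thiolase that opens the pathway, behaved otherwise. It had 57.6, 63.6 and 63.1 CPM in the combination libraries, 62.8, 64.6 and 66.6 CPM with KPT-330, 86.0, 87.4 and 80.6 CPM with CS, and 85.3, 88.2 and 98.0 CPM with DMSO. The combination and KPT-330 libraries overlapped below the CS and DMSO libraries, with -0.49 ± 0.06 for KPT-330 over DMSO (edgeR adjusted p = 4.12e-05) and -0.07 ± 0.06 for the combination over KPT-330 (edgeR adjusted p = 0.387), this value called at -0.19 with GC correction. The ACAT2 gene overlaps TCP1 and SOD2, and reads from the shared stretches cannot be told apart, since the library kit does not mark strand.

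FDPS, which makes farnesyl diphosphate, was -0.18 ± 0.05 with KPT-330 over DMSO (edgeR adjusted p = 0.0105), a call lost without KPT-330 replicate 2 (-0.14). It stayed below DMSO with the combination, at -0.32 ± 0.05 (edgeR adjusted p = 0.000159). The kinases MVK and PMVK and the decarboxylase MVD, of 59.0% to 64.1% GC, gave -0.28, -0.13 and -0.03 with KPT-330 over DMSO, none of them called; the 95% intervals reach as low as -0.62 for MVK, -0.39 for PMVK and -0.56 for MVD. With GC correction all 3 were called lower, at -0.71, -0.53 and -0.68. MMAB overlaps MVK on the opposite strand with 186% as many reads, and the reads of these genes may not be separate. PMVK was lower with the combination than with DMSO, at -0.41 ± 0.12 (edgeR adjusted p = 0.0104); without DMSO replicate 1 it was -0.29 with an edgeR adjusted p of 0.0611.

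Of the 11 squalene and sterol enzymes, 7 (63.6%) were lower with KPT-330 than with DMSO and 1 (9.09%) higher, where 23.8% and 24.7% of all tested genes were. With the combination 6 (54.5%) were higher than with KPT-330 and 0 lower, where 19.7% and 17.9% of all tested genes were. MSMO1 (ENSG00000052802, chr4:165327623-165343160), a methyl sterol oxidase, had 55.8, 59.4 and 63.2 CPM in the combination libraries, 33.0, 35.8 and 32.5 CPM with KPT-330, 71.0, 66.7 and 63.1 CPM with CS, and 53.0, 61.3 and 67.1 CPM with DMSO. The KPT-330 libraries stood apart at the bottom, and the combination libraries lay within the span of the DMSO ones. Its log2 fold changes were -0.84 ± 0.09 for KPT-330 over DMSO (edgeR adjusted p = 4.27e-06), 0.82 ± 0.08 for the combination over KPT-330 (edgeR adjusted p = 1.17e-05), and -0.02 ± 0.08 for the combination over DMSO (95% interval -0.21 to 0.16).

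SQLE, the squalene epoxidase, had 140.2, 143 and 153 CPM in the combination libraries, 107, 112 and 108 CPM with KPT-330, 179, 178 and 165 CPM with CS, and 169, 186 and 199 CPM with DMSO. The combination libraries lay between the KPT-330 and the DMSO libraries without overlap. It gave -0.76 ± 0.06 with KPT-330 over DMSO (edgeR adjusted p = 8.34e-07), 0.42 ± 0.06 with the combination over KPT-330 (edgeR adjusted p = 0.000248) and -0.34 ± 0.06 with the combination over DMSO (edgeR adjusted p = 0.000451). FDFT1, squalene synthase, had 228, 231 and 236 CPM in the combination libraries, 195, 194 and 198 CPM with KPT-330, 305, 294 and 286 CPM with CS, and 267, 275 and 293 CPM with DMSO. The combination libraries lay above those with KPT-330 and below those with DMSO, with no overlap, at -0.51 ± 0.05 for KPT-330 over DMSO (edgeR adjusted p = 2.72e-06) and 0.24 ± 0.05 for the combination over KPT-330 (edgeR adjusted p = 0.00174).

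CYP51A1, the lanosterol demethylase, had 76.0, 82.0 and 86.2 CPM in the combination libraries, 56.1, 59.8 and 55.0 CPM with KPT-330, 82.5, 79.2 and 72.2 CPM with CS, and 60.8, 68.0 and 73.2 CPM with DMSO. The combination libraries lay above every DMSO library, at 0.27 ± 0.08 (edgeR adjusted p = 0.0078), and were 0.52 ± 0.08 over KPT-330 (edgeR adjusted p = 0.000196). KPT-330 over DMSO gave -0.24 ± 0.08 (edgeR adjusted p = 0.0192), a call lost without KPT-330 replicate 1 (-0.23), KPT-330 replicate 3 (-0.22), DMSO replicate 2 (-0.24) or DMSO replicate 3 (-0.17); with GC correction it was called at -0.09. LRRD1, which lies over CYP51A1 on the same strand, had 97.9% as many reads, and the reads of the 2 genes may not be separate. SC5D, the sterol desaturase, had 32.3, 32.3 and 35.0 CPM in the combination libraries, 23.2, 24.5 and 23.2 CPM with KPT-330, 34.3, 32.3 and 30.9 CPM with CS, and 29.4, 33.4 and 35.6 CPM with DMSO. KPT-330 was below the other groups, which overlapped one another: -0.47 ± 0.08 for KPT-330 over DMSO (edgeR adjusted p = 0.000227), 0.49 ± 0.08 for the combination over KPT-330 (edgeR adjusted p = 0.000272) and 0.02 ± 0.08 for the combination over DMSO (95% interval -0.14 to 0.19).

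TM7SF2, a sterol reductase, went the other way. It had 11.4, 11.3 and 8.67 CPM in the combination libraries, 12.1, 12.5 and 13.2 CPM with KPT-330, 5.36, 6.90 and 9.79 CPM with CS, and 9.88, 7.46 and 5.48 CPM with DMSO. The KPT-330 libraries were above all DMSO libraries, at 0.73 ± 0.22 (edgeR adjusted p = 0.0143). That call was lost with GC correction (0.13, edgeR adjusted p = 0.178) and without DMSO replicate 3 (0.55, edgeR adjusted p = 0.0717), and VPS51 overlaps the gene with more reads of its own. NSDHL, a sterol dehydrogenase, and EBP, a sterol isomerase, were lower with KPT-330 (-0.37 ± 0.08 and -0.47 ± 0.11 over DMSO) and gave 0.03 ± 0.08 and -0.04 ± 0.12 with the combination over KPT-330, both uncalled. HSD17B7, a sterol ketone reductase with a near copy, HSD17B7P2, that may share its reads, was 0.32 ± 0.07 with the combination over KPT-330 (edgeR adjusted p = 0.00358). LSS, which closes the sterol rings, gave -0.57 ± 0.22 with the combination over DMSO (edgeR adjusted p = 0.042), a call lost when any of 8 single libraries is left out, with values of -0.29 (without DMSO replicate 1) to -0.63 (without DMSO replicate 2). DHCR7, which makes the last step to cholesterol, was uncalled in every comparison, at -0.19 ± 0.17 with KPT-330 over DMSO (95% interval -0.56 to 0.18). With GC correction it was called there at -0.53, and LSS, uncalled at -0.37 without it, at -0.73.

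**Figure D2:**
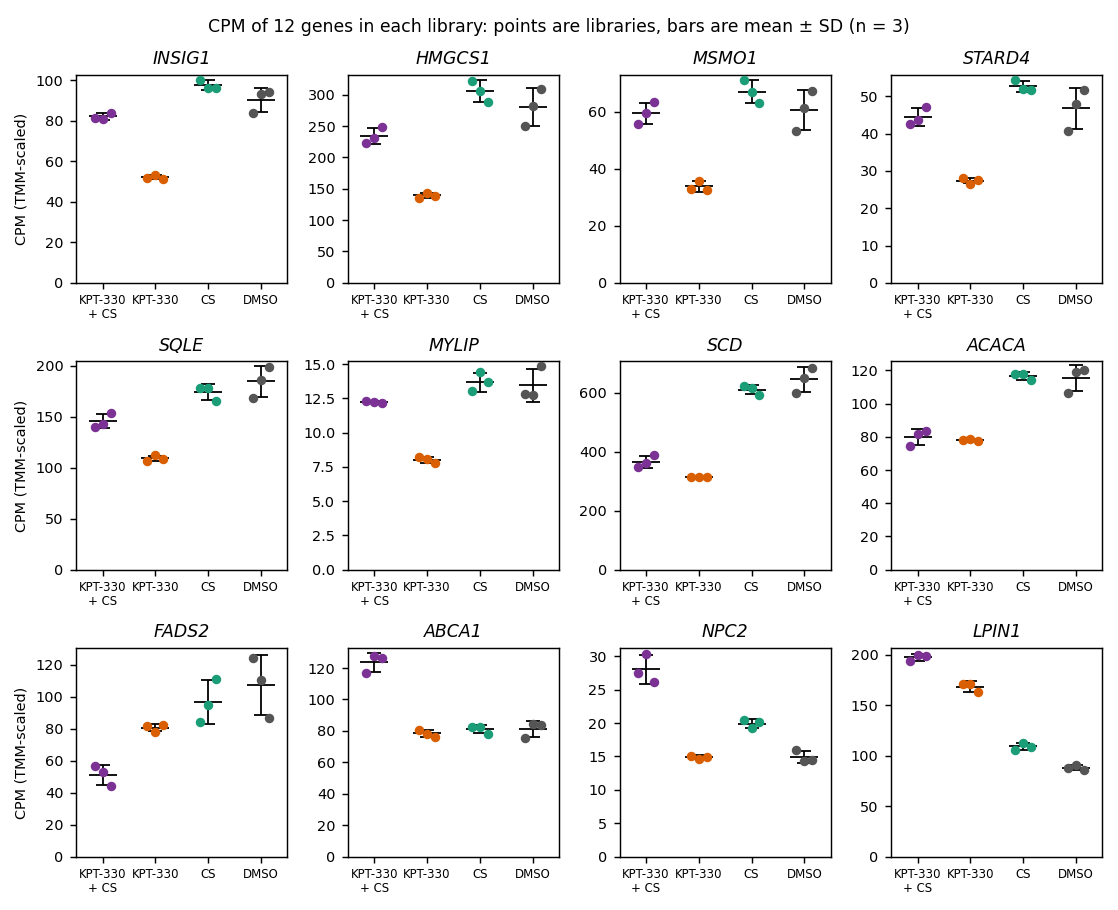
Points are the CPM of single libraries for 12 genes under the 4 treatments, and bars are the mean and SD of 3 libraries; every axis starts at 0. In the top row the KPT-330 libraries lie below all others, while SCD, ACACA and FADS2 stay below DMSO with the combination, and ABCA1, NPC2 and LPIN1 are highest with the combination.

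Of the 6 genes of sterol transport and receptor turnover, 4 (66.7%, against 19.7% of all tested genes) were higher with the combination than with KPT-330, NPC2 by the most of all 37. STARD4 (ENSG00000164211, chr5:111496033-111512590), which shuttles cholesterol through the cytosol, had 42.7, 43.7 and 47.2 CPM in the combination libraries, 28.1, 26.6 and 27.6 CPM with KPT-330, 54.5, 51.9 and 51.7 CPM with CS, and 40.7, 48.1 and 51.6 CPM with DMSO. KPT-330 was lowest without overlap and the combination overlapped DMSO: -0.77 ± 0.08 for KPT-330 over DMSO (edgeR adjusted p = 5.37e-06), 0.70 ± 0.08 for the combination over KPT-330 (edgeR adjusted p = 2.48e-05) and -0.07 ± 0.08 for the combination over DMSO, which was called without DMSO replicate 1 (-0.17). MYLIP, the ubiquitin ligase that sends lipoprotein receptors for destruction, had 12.3, 12.2 and 12.2 CPM in the combination libraries, 8.24, 8.04 and 7.77 CPM with KPT-330, 13.0, 14.4 and 13.7 CPM with CS, and 12.8, 12.7 and 14.8 CPM with DMSO. KPT-330 was lowest without overlap, and the combination lay just under every DMSO library. It was -0.75 ± 0.08 with KPT-330 over DMSO (edgeR adjusted p = 1.08e-05) and 0.61 ± 0.08 with the combination over KPT-330 (edgeR adjusted p = 0.000109).

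NPC2 (ENSG00000119655, chr14:74476192-74494177), which lifts cholesterol out of lysosomal lipoproteins, had 27.6, 30.4 and 26.2 CPM in the combination libraries, 15.1, 14.6 and 14.9 CPM with KPT-330, 20.4, 19.2 and 20.2 CPM with CS, and 16.0, 14.4 and 14.4 CPM with DMSO. The combination was highest, CS next, and KPT-330 and DMSO overlapped below them. CS alone raised it by 0.42 ± 0.08 over DMSO (edgeR adjusted p = 0.00484), KPT-330 gave -0.01 ± 0.08, and the combination stood at 0.91 ± 0.08 over KPT-330 (edgeR adjusted p = 1.81e-06) and 0.91 ± 0.08 over DMSO (edgeR adjusted p = 3.47e-07). The rise with CS was uncalled when DMSO and CS libraries were fitted alone (adjusted p = 0.0696). ISCA2 overlaps NPC2 on the opposite strand with 126% as many reads, and the reads of the 2 genes may not be separate. NPC1, its partner in the lysosomal membrane, was uncalled in every comparison, with log2 fold changes of -0.05 ± 0.06 for KPT-330 and 0.00 ± 0.06 for the combination over DMSO. C18orf8 overlaps NPC1 on the opposite strand with 92.2% as many reads, which may not be separate either.

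ABCA1 (ENSG00000165029, chr9:104781002-104928237), the pump that exports cholesterol, had 117, 128 and 127 CPM in the combination libraries, 80.6, 78.3 and 76.3 CPM with KPT-330, 82.5, 82.3 and 78.1 CPM with CS, and 75.4, 84.1 and 84.0 CPM with DMSO. Every combination library exceeded every other library, at 0.66 ± 0.06 over KPT-330 (edgeR adjusted p = 3.19e-06) and 0.61 ± 0.06 over DMSO (edgeR adjusted p = 1.26e-06), while KPT-330 and CS gave -0.05 ± 0.06 and 0.00 ± 0.06. ABCG1, another cholesterol exporter and LXR target, did not share that pattern. It had 39.3, 39.4 and 35.0 CPM in the combination libraries, 30.5, 30.7 and 32.5 CPM with KPT-330, 33.7, 39.7 and 42.6 CPM with CS, and 47.5, 41.7 and 35.5 CPM with DMSO. KPT-330 was below DMSO, at -0.41 ± 0.10 (edgeR adjusted p = 0.00553), and the combination over KPT-330 was uncalled at 0.28 ± 0.10 (edgeR adjusted p = 0.0522), although the 2 groups did not overlap. It was called with GC correction (0.35), with DESeq2 size factors (0.27), with the 2 groups fitted alone (0.29), and when replicate 3 of the combination (0.33), replicate 1 or 3 of CS (0.27 and 0.29) or replicate 1 or 3 of DMSO (0.27 and 0.29) was left out.

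Of the 8 fatty acid and lipid genes, 5 (62.5%) were lower and 1 (12.5%) higher with the combination than with DMSO, SCD, ACACA and FADS2 among the lower, where 26.2% of all tested genes were lower and 29.3% higher. SCD (ENSG00000099194, chr10:100347124-100364834), which puts the double bond into stearate and was the most abundant of the 37 per kilobase with DMSO, had 348, 362 and 388 CPM in the combination libraries, 313, 316 and 313 CPM with KPT-330, 624, 616 and 592 CPM with CS, and 600.1, 650.4 and 684 CPM with DMSO. KPT-330 stood at a ratio of 0.487 to DMSO, the lowest of all 37, or -1.04 ± 0.06 (edgeR adjusted p = 2.25e-08). The combination was 0.22 ± 0.06 over KPT-330 (edgeR adjusted p = 0.0094) and still -0.82 ± 0.06 against DMSO (edgeR adjusted p = 7.83e-08), with no overlap in either. ACACA, the carboxylase that makes malonyl-CoA, had 74.6, 81.6 and 83.4 CPM in the combination libraries, 77.9, 78.7 and 77.7 CPM with KPT-330, 118, 118 and 114 CPM with CS, and 106, 119 and 120.1 CPM with DMSO. Both KPT-330 groups lay below both groups without it, and they overlapped each other: -0.56 ± 0.06 for KPT-330 over DMSO (edgeR adjusted p = 6.05e-06) and 0.03 ± 0.06 for the combination over KPT-330 (95% interval -0.10 to 0.16).

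FADS2 (ENSG00000134824, chr11:61792980-61867354), a desaturase of polyunsaturated fatty acids, had 56.4, 52.9 and 44.1 CPM in the combination libraries, 81.7, 78.0 and 82.2 CPM with KPT-330, 84.0, 94.9 and 111 CPM with CS, and 124, 110.3 and 86.8 CPM with DMSO. The combination lay below every other library, at -0.66 ± 0.13 over KPT-330 (edgeR adjusted p = 0.00145) and -1.07 ± 0.13 over DMSO (edgeR adjusted p = 1.1e-05). KPT-330 alone gave -0.41 ± 0.13 (edgeR adjusted p = 0.017), a call lost without KPT-330 replicate 2 (-0.39), DMSO replicate 1 (-0.29) or DMSO replicate 2 (-0.39); with GC correction it was called at -0.71. FADS2 shares ground with FADS1 and FEN1, and its reads may not be fully its own. ACLY, which cuts citrate to acetyl-CoA, had 129, 124 and 112 CPM in the combination libraries, 159, 152 and 161 CPM with KPT-330, 146, 161 and 182 CPM with CS, and 207, 184 and 160.4 CPM with DMSO. It too was lowest with the combination, at -0.37 ± 0.09 over KPT-330 (edgeR adjusted p = 0.0078) and -0.59 ± 0.09 over DMSO (edgeR adjusted p = 0.00013); KPT-330 over DMSO was -0.22 ± 0.09, uncalled, and called with GC correction (-0.33), with DESeq2 size factors (-0.25), and without CS replicate 3 (-0.22) or DMSO replicate 3 (-0.30).

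ELOVL6, which lengthens palmitate, had 62.1, 61.1 and 67.0 CPM in the combination libraries, 45.2, 41.9 and 45.0 CPM with KPT-330, 74.2, 69.3 and 65.7 CPM with CS, and 56.2, 62.8 and 69.8 CPM with DMSO. KPT-330 was lowest without overlap, and the combination lay within the DMSO range. It gave -0.52 ± 0.08 for KPT-330 over DMSO (edgeR adjusted p = 0.000129), 0.53 ± 0.08 for the combination over KPT-330 (edgeR adjusted p = 0.000189) and 0.01 ± 0.08 for the combination over DMSO (95% interval -0.16 to 0.18). FADS1, the companion desaturase, was -0.23 ± 0.05 with KPT-330 and -0.32 ± 0.05 with the combination over DMSO, both lower. Its reads may in part be shared with FADS2, which overlaps it. LPIN1 (ENSG00000134324, chr2:11677595-11827409), the phosphatidate phosphatase that makes diacylglycerol for fat and phospholipid synthesis, had 194, 199.7 and 198 CPM in the combination libraries, 171, 171 and 162 CPM with KPT-330, 106, 113 and 108 CPM with CS, and 87.5, 90.6 and 85.8 CPM with DMSO. The 4 groups did not overlap: the combination was highest, then KPT-330, then CS, and DMSO was lowest. Its log2 fold changes over DMSO were 0.31 ± 0.05 with CS (edgeR adjusted p = 0.00172), 0.94 ± 0.05 with KPT-330 (edgeR adjusted p = 9.04e-09) and 1.16 ± 0.05 with the combination (edgeR adjusted p = 5.86e-10), with KPT-330 and with the combination the highest of all 37.

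**Figure D3:**
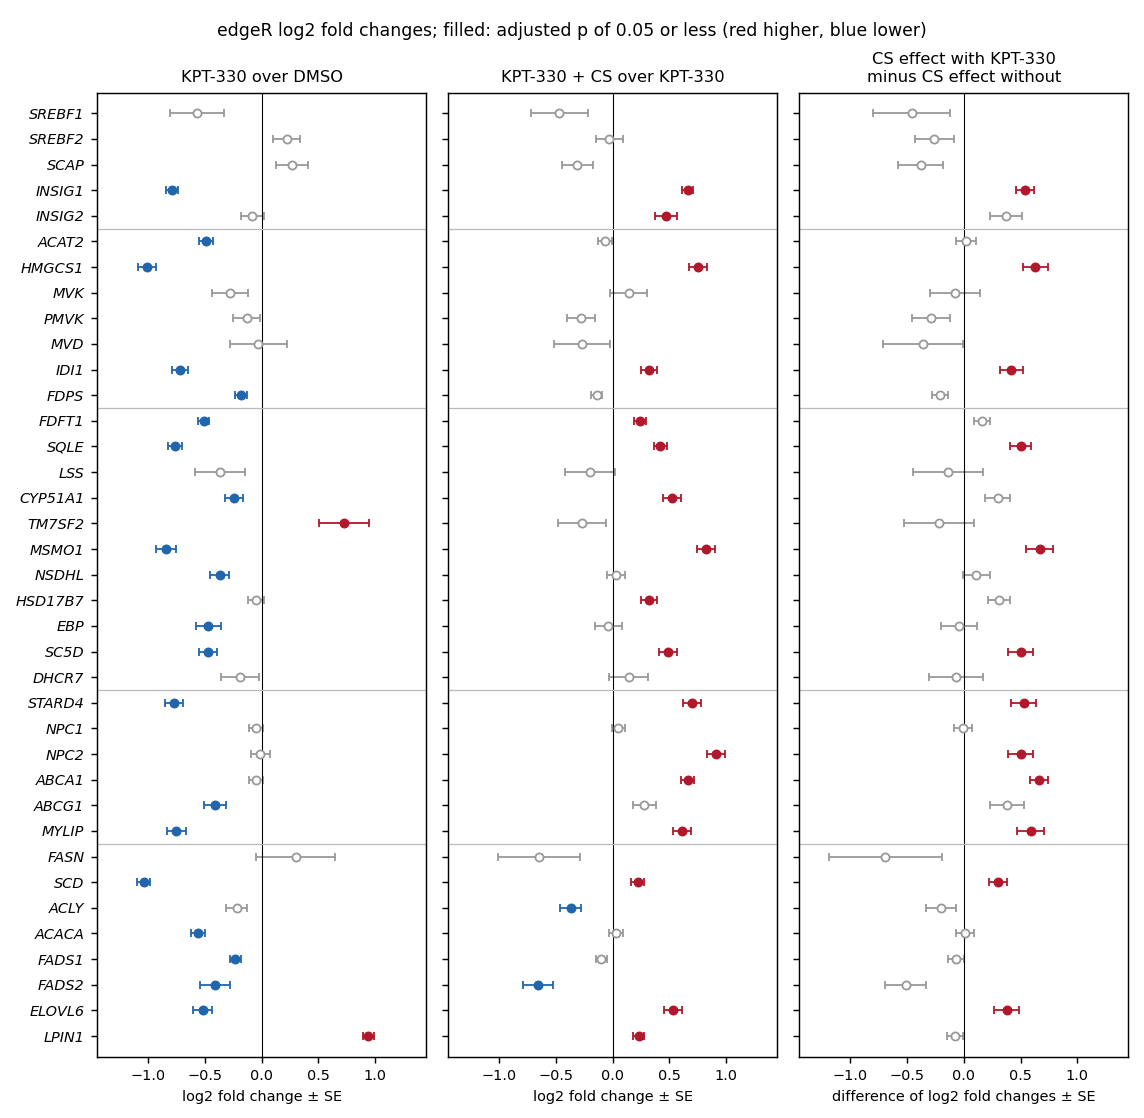
Points are edgeR log2 fold changes with their SE for all 37 genes, by role from top to bottom: KPT-330 over DMSO, the combination over KPT-330, and the CS effect with KPT-330 minus the CS effect without it. Filled points had an adjusted p of 0.05 or less; there are 2 higher and 20 lower in the left panel, 17 and 2 in the middle, and 12 and 0 on the right.

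Whether CS acted differently in the presence of KPT-330 was tested directly, as the log2 fold change of the combination over KPT-330 minus that of CS over DMSO. For 12 of the 37 genes (32.4%) this difference was called and positive, and for 0 it was called and negative, against 8.04% and 6.62% of all tested genes (14.7% called in all). All 12 lay below 50% GC content, as 20 of the 37 genes do. With GC correction 14 were called positive and 2 negative, beside 2237 and 3079 of all 19460 tested genes. The values of IDI1 (0.25), SC5D (0.32), STARD4 (0.35), SCD (0.19) and ELOVL6 (0.23) were then over 1.5 times smaller, all still called. The largest called was MSMO1, at 0.67 ± 0.12 (edgeR adjusted p = 0.00275), where CS gave 0.15 ± 0.08 over DMSO and 0.82 ± 0.08 on top of KPT-330. ABCA1 followed at 0.66 ± 0.08 (edgeR adjusted p = 0.000243) and HMGCS1 at 0.63 ± 0.11 (edgeR adjusted p = 0.00188). MYLIP gave 0.59 ± 0.12, INSIG1 0.54 ± 0.08, STARD4 0.53 ± 0.11, and SQLE, SC5D and NPC2 0.50 each. The other 3 lay nearer the threshold. IDI1 (0.42 ± 0.10) was 0.38 with an edgeR adjusted p of 0.0506 without DMSO replicate 2. SCD (0.30 ± 0.08) was uncalled when any of 8 libraries was left out, at 0.26 to 0.31, and with DESeq2 size factors (0.29). ELOVL6 (0.38 ± 0.11) was uncalled when any of 9 was left out, at 0.29 to 0.40, and with DESeq2 size factors (0.37). Those of FADS2 (-0.51 ± 0.18, edgeR adjusted p = 0.0782) and FASN (-0.69 ± 0.50, edgeR adjusted p = 0.385) were the most negative and uncalled; the one of FADS2 was called without CS replicate 1 (-0.60) or DMSO replicate 1 (-0.63), with the DESeq2 Wald test (-0.52) and, at a smaller size, with GC correction (-0.32) or without the library of lowest GC slope in the combination, CS and DMSO (-0.37).

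Set against DMSO, the combination left 17 genes lower (45.9%) and 6 higher (16.2%), where 26.2% of all tested genes were lower and 29.3% higher (55.5% called in all), with a median log2 fold change of -0.14 over the 37. Scaling by library size alone moves the median of all genes in this comparison to 0.23 (0.04 with TMM) and splits the 37 into 11 lower and 10 higher; HMGCS1 (-0.07), INSIG1 (0.05), PMVK, FDFT1, LSS and NSDHL were then uncalled, while SQLE (-0.16), FDPS (-0.14), FADS1 (-0.14), EBP (-0.34), IDI1 (-0.21), ACACA (-0.34), CYP51A1 (0.46) and HSD17B7 (0.45) stayed called. This comparison shares its DMSO libraries with KPT-330 over DMSO, so the values are given side by side. SCD was -0.82 with the combination and -1.04 with KPT-330, ACAT2 -0.56 and -0.49, EBP -0.52 and -0.47, and FADS2 -1.07 and -0.41. HMGCS1 was -0.26 and -1.01, SQLE -0.34 and -0.76, and MSMO1 -0.02 and -0.84. INSIG1, at -0.14 ± 0.05 (edgeR adjusted p = 0.0442), sat at the threshold: its call was lost when any of 10 single libraries was left out, at -0.08 (without DMSO replicate 3) to -0.16 (without combination replicate 3).

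With the combination over CS, 17 genes were lower and 5 higher (21.7% and 26.1% of all genes; 47.8% called in all), from -1.03 for SREBF1 to 0.86 for LPIN1. With CS over KPT-330, 21 were higher and 2 lower (20.2% and 22.6% of all genes; 42.8% called in all), from -0.77 for TM7SF2 to 1.13 for HMGCS1. CS over DMSO spanned -0.17 for ACLY to 0.42 for NPC2. With GC correction, 15 genes were called in that comparison, 12 higher and 3 lower. Over all 19460 tested genes the correction also raised the calls, to 2035 higher and 2812 lower from 731 and 998. HMGCS1 was then 0.16 and CYP51A1 0.25.

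Genes around the pathway gave a mixed picture. Of 11 genes listed for SREBP handling and sterol sensing, 1 was higher and 4 lower with KPT-330 over DMSO. With the combination over KPT-330, 7 were higher and 2 lower. That is 9.09% and 36.4% with KPT-330 over DMSO, and 63.6% and 18.2% with the combination over KPT-330. Over all tested genes these shares were 24.7% and 23.8%, and 19.7% and 17.9%. The 11 include HSD17B7P2, the near copy of HSD17B7, which may share that gene's reads and is not itself a partner in SREBP handling. C12orf49, needed for SREBP processing and later renamed SPRING, was -0.60 ± 0.04 (edgeR adjusted p = 3.16e-07), with 68.2 ± 0.659 CPM with KPT-330 and 103 ± 2.83 CPM with DMSO (SD, n = 3 each). UBE2G2, a ubiquitin-conjugating enzyme of the endoplasmic reticulum, was -0.48 ± 0.04, PAQR3, which tethers SCAP at the Golgi, -0.48 ± 0.09, and TMEM97, a sterol-responsive membrane protein, -0.42 ± 0.06. RNF139, a ubiquitin ligase of the endoplasmic reticulum, was 0.54 ± 0.08 with the combination over KPT-330 (edgeR adjusted p = 0.00016). MBTPS1, the protease that makes the opening cut in SREBP, gave 0.04 ± 0.06 with KPT-330 over DMSO, uncalled, and 0.44 ± 0.06 with the combination over KPT-330 (edgeR adjusted p = 6.93e-05). MBTPS2, the protease that completes it, gave -0.14 ± 0.08 with KPT-330 over DMSO, uncalled.

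Mevalonate also feeds protein prenylation, ubiquinone and dolichol. Of 12 genes of those branches, 7 were lower and 0 higher with KPT-330 over DMSO, and 1 was higher and 2 lower with the combination over KPT-330. The 58.3% lower with KPT-330 stands beside 23.8% of all tested genes, and the 8.33% higher and 16.7% lower with the combination beside 19.7% and 17.9%. RABGGTB, which prenylates Rab proteins, was -0.84 ± 0.08 with KPT-330 (edgeR adjusted p = 3.76e-06) and 0.04 ± 0.08 with the combination over KPT-330, uncalled. PDSS1, which starts the ubiquinone tail, was -0.46 ± 0.08 with KPT-330 over DMSO and a further -0.53 ± 0.08 with the combination over KPT-330.

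Fatty acid supply and elongation outside the 37 were represented by 17 tested genes, of which 8 were lower and 3 higher with KPT-330 over DMSO, and 3 were lower and 3 higher with the combination over KPT-330. With KPT-330 47.1% were lower and 17.6% higher, beside 23.8% and 24.7% of all tested genes, and with the combination 17.6% changed each way, near the 17.9% and 19.7% over all tested genes. ELOVL1 and ELOVL5, elongases of long and polyunsaturated chains, were -0.87 ± 0.09 and -0.78 ± 0.08 with KPT-330, and ACSL1, which activates fatty acids, -0.69 ± 0.05. With the combination over KPT-330 they gave 0.02, -0.20 and -0.05, all uncalled. FADS3, a desaturase, was higher with KPT-330, with 95.2 ± 5.34 CPM, than with DMSO, with 30.7 ± 11.5 CPM (SD, n = 3 each), at 1.63 ± 0.24 (edgeR adjusted p = 0.000104). GC-corrected values are given here for the 37 genes alone, where the rise of TM7SF2 with KPT-330 went from 0.73 to 0.13. How far that of FADS3 depends on GC content is not shown.

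In glycerolipid and choline phospholipid synthesis, 6 of 21 genes were lower and 5 higher with KPT-330 over DMSO, and 6 were lower and 3 higher with the combination over KPT-330. With KPT-330 these are 28.6% and 23.8%, near the shares over all tested genes (23.8% and 24.7%); with the combination they are 28.6% and 14.3%, beside 17.9% and 19.7%. GPAM, which starts glycerolipid synthesis and is a known SREBP target, was -0.83 ± 0.07 with KPT-330 (edgeR adjusted p = 1.19e-06) and 0.03 with the combination over KPT-330, uncalled. LPIN2, a relative of LPIN1, was 0.69 ± 0.06 (edgeR adjusted p = 9.78e-07), and LPIN3, at under 2 CPM in every library, 2.40 ± 0.48. CHKA, the choline kinase, was lower with CS over DMSO (-0.27 ± 0.05, edgeR adjusted p = 0.00508) as well as with KPT-330 (-0.57 ± 0.05). The salicylate was given as its choline salt, and choline itself was not measured.

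Among 14 tested genes of sterol esters, lysosomes and LXR, 3 were lower and 3 higher with KPT-330 over DMSO, and 1 was lower and 2 higher with the combination over KPT-330. With KPT-330 that is 21.4% each way, near the shares over all tested genes (23.8% and 24.7%), and with the combination 7.14% and 14.3%, under 17.9% and 19.7%. LIPA, the lysosomal acid lipase that frees cholesterol from its esters, had 39.2, 39.6 and 42.3 CPM with the combination, 23.6, 23.3 and 22.4 CPM with KPT-330, 32.9, 32.3 and 28.5 CPM with CS, and 29.1, 30.9 and 34.1 CPM with DMSO. The combination was above and KPT-330 below every library of the other groups, at 0.81 ± 0.08 for the combination over KPT-330 (edgeR adjusted p = 5.6e-06), and the CS effect with KPT-330 exceeded that without it by 0.81 ± 0.11 (edgeR adjusted p = 0.00037). GRAMD1A and GRAMD1B, which move cholesterol in from the plasma membrane, were 0.75 ± 0.17 and 2.53 ± 0.38 with KPT-330 over DMSO, GRAMD1B at under 1 CPM in every library. NR1H2, an LXR, was 0.84 ± 0.25 with KPT-330 over DMSO (edgeR adjusted p = 0.0138), and NR1H3, the other LXR, gave -0.05 ± 0.17. No GC-corrected value is given here for GRAMD1A, GRAMD1B or NR1H2.

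Base composition moved with the spread inside groups. FASN, the fatty acid synthase and the most GC-rich of the 37 (65.3%), ranged over 14.3 to 32.9 CPM with the combination, 34.7 to 39.6 CPM with KPT-330, 19.8 to 46.1 CPM with CS and 17.7 to 46.6 CPM with DMSO. Its coefficient of variation was 7.10% with KPT-330 and 47.9% with DMSO. Without GC correction, 0.30 ± 0.35 for KPT-330 over DMSO and -0.36 ± 0.36 for the combination over DMSO could not be told from 0 (95% intervals -0.47 to 1.06 and -1.13 to 0.41). With GC correction FASN was -0.37 for KPT-330 over DMSO, uncalled (edgeR adjusted p = 0.079). For the combination over DMSO it was then called lower, at -0.59 (edgeR adjusted p = 0.0119). The slope of library level on GC content over all tested genes was 0.206 to 0.242 log2 units per 10 points of GC in the KPT-330 libraries, -0.16 to 0.135 with the combination, -0.243 to 0.064 with CS, and -0.334 to 0.093 with DMSO. The 17 genes at 50% GC or more had median coefficients of variation of 12.4% with the combination, 3.77% with KPT-330, 14.3% with CS and 17.7% with DMSO; for the 20 below 50% they were 5.14%, 2.79%, 3.75% and 8.41%.

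After GC correction, 29 of the 37 were lower and 1 higher with KPT-330 over DMSO, beside 5529 lower and 5106 higher of all 19460 tested genes. HMGCS1 gave -0.85 for KPT-330 over DMSO and 0.63 for the combination over KPT-330, MSMO1 -0.65 and 0.68, and SCD -0.96 and 0.11. For KPT-330 over DMSO, SC5D was smaller at -0.28, and FDPS and FADS1 were larger at -0.35 and -0.39. The edgeR adjusted p of FDPS and FADS1 rose all the same, from 0.0105 and 0.0024 to 0.0138 and 0.012. For the combination over KPT-330, IDI1 was 0.19 and HSD17B7 0.20, both smaller and still called. Among GC-rich genes, MVK and DHCR7 were then higher with the combination than with KPT-330 (0.40 and 0.33), which they were not without the correction. All 19 calls of the combination over KPT-330 were kept under each of the 22 alternatives run.

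**Figure D4:**
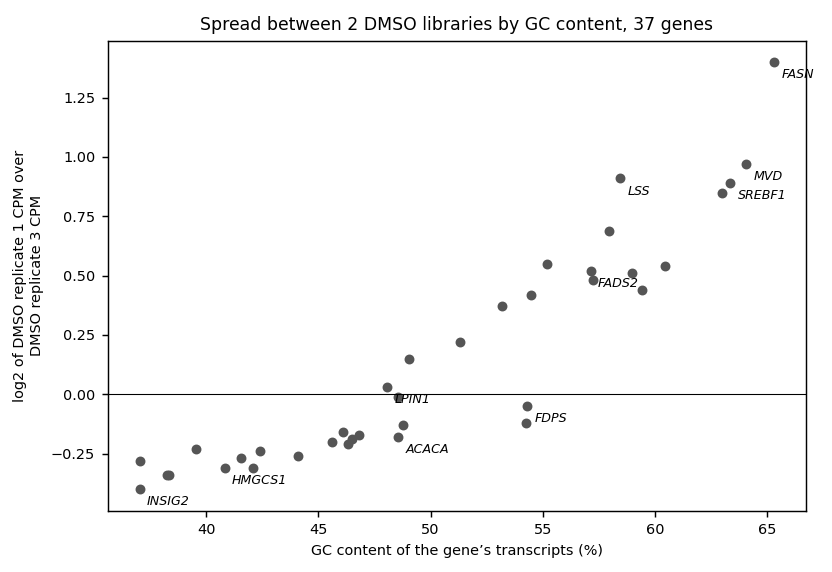
Each point is 1 of the 37 genes; the x axis is the GC content of its transcripts in percent, and the y axis is the log2 of its CPM in DMSO replicate 1 over DMSO replicate 3. All genes below 48% GC lie under 0, and all above 50% but FADS1 (-0.12) and FDPS (-0.05) lie over it, up to 1.40 for FASN.

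Depth was 35325563 to 59490178 total counts per library. The 6 B cell markers checked were all expressed, summing to 2498 to 2559 CPM with the combination, 2393 to 2419 CPM with KPT-330, 2052 to 2160 CPM with CS and 1782 to 1805 CPM with DMSO. The marker lists of T cells, myeloid cells, epithelium, fibroblasts, hepatocytes and adipocytes each summed to under 5 CPM in every library (highest 4.52 CPM, myeloid, DMSO), with S100A8, KRT19, TTR and LEP at 0 in all libraries. Within that range some moved with treatment. The 6 T cell markers summed to 1.52 to 2.17 CPM with the combination, 2.90 to 3.27 CPM with KPT-330, 0.506 to 0.636 CPM with CS and 0.905 to 1.24 CPM with DMSO, and all 4 tested were higher with KPT-330 than with DMSO. The 5 epithelial markers summed to 1.71 to 2.35 CPM with the combination, 2.40 to 3.34 CPM with KPT-330, 0.756 to 0.874 CPM with CS and 0.612 to 0.965 CPM with DMSO, and both tested were higher with KPT-330 than with DMSO. Of 3 myeloid markers tested 2 were lower with KPT-330, and the 1 fibroblast marker tested was higher, with that list at 0.381 CPM or less. The part of these transcripts, and of the B cell markers, in the results was not tested. Total cell RNA and sterol content were not measured.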

How the data were processed

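RNA-seq counts were used as the authors deposited them, in 1 table of 64253 genes by 12 libraries with a gene length column (also the authors'). Per the series design text, reads were aligned to hg38 with STAR in a modified MAP-RSeq workflow and counted on Ensembl 78 genes. Neither the program that counted reads nor its use of strand is given in the sources used here. Total counts per library were 35325563 to 59490178, so depth limits mainly the genes at a few CPM. Every gene was fitted with edgeR 4.0.16 (R 4.3.3): filterByExpr by group, TMM scaling, 1 robust quasi-likelihood fit of all 12 libraries with treatment as the single factor (8 residual degrees of freedom), two-sided F-tests for 7 comparisons, and Benjamini-Hochberg adjustment over 19460 tested genes in each. Standard errors were taken as the fold change (log2) over the root of F and, like the 95% intervals made from them, are approximate. CPM values use TMM-scaled library sizes, and values per kilobase use the deposited length.

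The 37 genes and the lists around them were chosen with earlier results of these data known. Of each role, genes among the 3 largest called changes, or called in opposite directions, are given in every library; from each other list up to 4 called genes, by size, and up to 2 uncalled ones are named. The values of LIPA in every library, and the genes named for their library range, were chosen after they were seen. ACACA also has a row on an alternate contig with 0 reads; the primary one was used. GC content is that of Ensembl transcripts in GENCODE 44, known for 97.0% of tested genes; the correction removed a lowess curve (span 0.3) of log2 counts (prior count 2) on GC from each library as an offset. Alternatives were DESeq2 size factors, library size alone, no filter, at least 1 CPM in 3 libraries, the DESeq2 1.42.0 Wald test, the compared groups alone, a replicate block, GC correction with and without it, each library left out, and, chosen after seeing the data, leaving out together the library with the lowest GC slope of the combination, CS and DMSO. The fitting steps were tested on simulated counts with known changes in a small share of genes and no slope on GC content. That test covers neither changes as broad as those with KPT-330 nor the choice of scaling or GC correction. Figures were drawn with matplotlib 3.10.9.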

Additional observations from a re-analysis of the deposited data

Results flagged for a closer look

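For 12 of the 37 genes the effect of CS differed between cells with and without KPT-330 by a test of the difference itself (edgeR's quasi-likelihood F-test, adjusted over all tested genes, of which 14.7% were called). The difference in log2 fold change, the combination over KPT-330 minus CS over DMSO, was 0.54 for INSIG1, 0.63 for HMGCS1 and 0.42 for IDI1. Among sterol enzymes it was 0.50 for SQLE, 0.67 for MSMO1 and 0.50 for SC5D. Among genes of sterol transport and receptor turnover it was 0.53 for STARD4, 0.50 for NPC2, 0.66 for ABCA1 and 0.59 for MYLIP. For fatty acid genes it was 0.30 for SCD and 0.38 for ELOVL6. All 12 genes lie below 50% GC content. IDI1 was 0.38 and uncalled without DMSO replicate 2, while SCD and ELOVL6 were uncalled without any of 8 and 9 single libraries, at 0.26 to 0.31 and 0.29 to 0.40, and with DESeq2 size factors, at 0.29 and 0.37. With GC correction the calls of all 12 were kept, at 0.25 for IDI1, 0.19 for SCD and 0.23 for ELOVL6.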

How the results depend on the processing

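Of the 19 genes called with the combination over KPT-330, all 19 kept their call and direction under all 22 alternatives; of the others, 14 of 22 did with KPT-330 over DMSO, 17 of 23 with the combination over DMSO, 1 of 2 (LPIN1) with CS over DMSO, 18 of 22 with the combination over CS, 19 of 23 with CS over KPT-330, and 9 of 12 for the difference in CS effect (21 alternatives, since it could not be fitted on the compared groups alone). With CS over DMSO the count of called genes was 2, but 6 with library size alone, 15 with GC correction, 13 with GC correction and the replicate block, and 1 with the compared groups alone. With the combination over CS it was 22, but 34 with GC correction, with or without the block. Over all 19460 tested genes GC correction also moved the calls, from 731 higher and 998 lower to 2035 and 2812 with CS over DMSO. With the combination over CS they went from 5081 higher and 4216 lower to 5643 and 6067. With single libraries left out, the counts among the 37 ran from 2 to 4 for CS over DMSO (4 without DMSO replicate 3), 9 to 17 for the difference in CS effect (17 without DMSO replicate 1), and within 1.5 times the full count elsewhere. Under GC correction SREBF2 reversed to -0.087 with KPT-330 over DMSO and 0.14 with the combination over KPT-330, and SCAP to -0.21 with KPT-330 over DMSO and 0.24 with CS over KPT-330 (the same values with the replicate block). With library size alone, INSIG1 was 0.049 and NPC1 0.18 with the combination over DMSO. The cause of these changes was not tested. That scaling also moved the split of all called genes, to 6651 higher and 2905 lower with KPT-330 over DMSO (4815 and 4631 with TMM) and to 7606 and 3363 with the combination over DMSO (5711 and 5095 with TMM). No pairing by replicate number was seen in log2 CPM without GC correction. Over 18 same-number pairs the correlation of deviations ran from -0.38 to 0.40 and exceeded 0.1 in 2, and 3 of 12 libraries correlated best with their own number. These deviations also carry each library's slope on GC content, so they cannot decide whether same-number libraries shared a culture or batch. With the replicate block, 22 of the 37 were called with KPT-330 over DMSO, 19 with the combination over KPT-330 and 10 for the difference in CS effect, where SCD (0.30) and ELOVL6 (0.38) were uncalled.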
